A study of Mus musculus with 9 samples.

Results

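The comparison set the ventricles of both kinds of phosphoinositide 3-kinase (PI3K) transgenic mouse, pooled, against those of their controls. It asked which transcripts moved the same way in a heart made larger and in a heart made smaller through one enzyme. All 9 arrays of the series entered it, 6 on the transgenic side and 3 on the control side, sorted by the group written in their titles. Mice of the caPI3K group (3 arrays) carried a constitutively active PI3K and, per the labels, had hearts 20% larger than wild type littermates. Mice of the dnPI3K group (3 arrays) carried a dominant negative PI3K, and their hearts were 17% smaller. NTG mice (3 arrays) carried no transgene. Total RNA came from ventricle only, with 1 array per mouse, so the replicates are separate animals. The promoter that drives the transgenes, the subunit they were made from, the strain, the age and the number of founder lines are not given in the sources used here.

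Insulin and its related growth factors signal through PI3K, whose lipid product draws the kinase Akt to the plasma membrane. In heart muscle this branch sets the size to which the organ grows. When the heart is loaded or diseased, ventricular muscle also re-expresses genes of fetal life, among them the slow β-myosin heavy chain, skeletal α-actin and the natriuretic peptides, beside the α-myosin heavy chain that dominates the adult rodent ventricle. The heart muscle content of the RNA was checked on 7 sarcomere genes (Myh6, Myh7, Myl2, Myl3, Tnni3, Tnnt2 and Actc1). Each lay at or above percentile 98.9 of its array on all 9 arrays. This check cannot tell whether atrial tissue was present. The atrial light chain gene Myl7 read 525 to 5579 in caPI3K, 36.5 to 142 in dnPI3K and 315 to 7253 in NTG.

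The promoter sequences of the 3 genes that passed the pooled test under a single gene name are shown first, because they are the genes the result turns on. Each is the 250 bases before the transcript start in RefSeq (GRCm38.p6), read 5′ to 3′ along the gene. Capitals mark a match, on either strand, to the M-CAT element (CATTCC, bound by TEAD factors) or the TATA box (TATAAA).
Myh7: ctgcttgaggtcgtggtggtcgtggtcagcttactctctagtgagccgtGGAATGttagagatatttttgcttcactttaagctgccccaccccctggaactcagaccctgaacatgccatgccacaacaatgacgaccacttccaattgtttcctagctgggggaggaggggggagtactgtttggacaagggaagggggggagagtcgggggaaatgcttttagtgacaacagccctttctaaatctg
Smyd2: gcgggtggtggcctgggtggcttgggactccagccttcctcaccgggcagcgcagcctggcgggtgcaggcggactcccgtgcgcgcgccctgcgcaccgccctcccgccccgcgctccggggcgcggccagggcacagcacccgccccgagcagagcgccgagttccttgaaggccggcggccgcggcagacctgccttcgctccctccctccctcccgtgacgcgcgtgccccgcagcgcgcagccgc
Gdap10: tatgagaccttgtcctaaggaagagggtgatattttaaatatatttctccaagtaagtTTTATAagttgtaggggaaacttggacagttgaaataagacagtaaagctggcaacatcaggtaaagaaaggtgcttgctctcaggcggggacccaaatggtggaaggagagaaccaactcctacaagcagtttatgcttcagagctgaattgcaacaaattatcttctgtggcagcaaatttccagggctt
The Myh7 window lies at chr14:54994627-54994876 on the minus strand and holds 1 M-CAT match, 201 bases before the start and in reverse orientation. This window also holds 1 E-box (CANNTG), 106 bases before the start. RefSeq lists a further Myh7 start downstream, whose window overlaps the printed one and has no M-CAT match and 2 E-boxes. The Smyd2 window, chr1:189922292-189922541 on the minus strand, has a G and C content of 78.8%, against a median of 52.4% in the promoter table, and no match to any motif searched. The Gdap10 window, chr12:32823866-32824115 on the plus strand, has a TATAAA match in reverse orientation 192 bases before the start and 2 E-boxes. Of 32851 promoter windows of this length, 12.6% hold an M-CAT match, 12.4% TATAAA and 66.2% an E-box. The forkhead motif (TGTTTAC, in 3.17% of windows), the CArG box (1.47%) and the MEF2 motif (2.92%) were not found in these windows. A match is a description of the letters and says nothing about binding.

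Few probe sets were called in the same direction in both kinds of transgenic ventricle. Intensities were compared as log2 differences in 1 limma fit of the 3 groups, with p-values adjusted by the Benjamini-Hochberg method over 10645 probe sets and a threshold of 0.05. The pooled difference is the mean of the caPI3K and dnPI3K differences from NTG, and a call also required the same sign in each. By this rule 4 of 10645 probe sets were called (0.0376%), 2 higher and 2 lower. The probe set of Mapt also passed the pooled test but had opposite signs in the 2 groups. From the same fit, 9 probe sets passed for caPI3K against NTG (0.0845%, 5 higher and 4 lower), 232 for dnPI3K against NTG (2.18%, 108 higher and 124 lower) and 345 for caPI3K against dnPI3K (3.24%). Both transgenic groups were compared with the same 3 NTG arrays, so their differences from NTG share that error. 2 probe sets passed against NTG in both groups, and 1 of them, that of Myh7, had the same sign in both.

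The median probe set had a standard error (SE) of 0.22 for the pooled log2 difference, which gives a 95% interval of 0.48 on either side. Smaller shared differences were therefore not resolved for a typical gene. That interval is not adjusted for the number of probe sets, and a call needed a larger difference. Pooled values of 1.61 for Lsm2 and 1.93 for Rhox5 did not pass, so the number of calls is no measure of how much changed. At an unadjusted p under 0.05, 989 probe sets (9.29%) differed in the pooled test, of which 486 were higher and 414 lower in both groups. The median pooled difference over 7484 genes was 0.0049, close to 0. The 6 transgenic arrays all lay above the 3 NTG arrays for 161 probe sets (1.51%) and all below them for 148 (1.39%). The counts of calls depended on single arrays: leaving out 1 array at a time gave between 1 and 6 higher calls and between 1 and 4 lower calls.

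**Figure D1:**
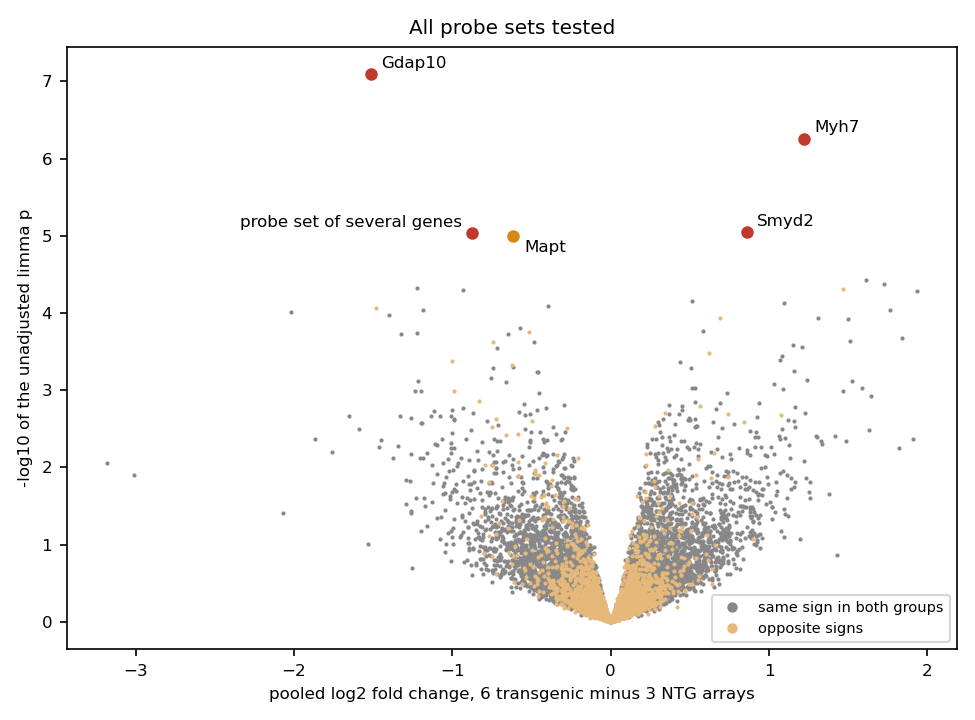
Each point is 1 of 10645 probe sets; the x axis is the pooled log2 difference (6 transgenic minus 3 NTG arrays) and the y axis is -log10 of the unadjusted limma p. Grey points have the same sign in caPI3K and dnPI3K and yellow points opposite signs. The 4 calls (red) and Mapt (orange) lie apart from the rest, with Myh7 at 1.22 and Gdap10 at -1.52.

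Myh7, which encodes the slow β-myosin heavy chain of the thick filament, was higher in every transgenic ventricle than in every control. Its normalized intensity was 17831, 27516 and 24310 on the caPI3K arrays, 28858, 30860 and 30302 on the dnPI3K arrays, and 11309, 11146 and 11187 on the NTG arrays. The lowest transgenic array lay well above the highest control, the controls were nearly equal, and the lowest caPI3K array was the most distant from its group. The pooled difference was 1.22 ± 0.12 (moderated SE, n = 6 against 3; limma adjusted p = 0.00295), a 2.33-fold rise with a 95% interval of 0.97 to 1.48 on the log2 scale. In caPI3K alone the difference was 1.03 (limma adjusted p = 0.0255) and in dnPI3K alone 1.42 (limma adjusted p = 0.000574). The caPI3K value was lower than the dnPI3K value by 0.39, with an interval of 0.10 to 0.69, a difference that did not pass (limma adjusted p = 0.160).

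Myh7 was called in each of the 9 fits that left out 1 array, with a pooled difference between 1.16 and 1.31. The call was lost in a fit with all 6 transgenic arrays as a single group (limma adjusted p = 0.0761) and when the larger of the caPI3K and dnPI3K p-values was used (adjusted p = 0.124). A second, much dimmer Myh7 probe set read 78.1, 213 and 71.4 in caPI3K, 293, 319 and 207 in dnPI3K and 46.4, 82.2 and 78.9 in NTG. Its caPI3K and NTG arrays overlap, and its pooled difference of 1.33 did not pass (limma adjusted p = 0.289). Both probe sets carry the array maker's suffix for probes shared within a sequence family, so related myosin transcripts may add to their signal. The α-myosin heavy chain gene Myh6 differed by -0.09 (interval -0.25 to 0.07, limma adjusted p = 0.752). Its probe set is among the brightest of the array, where quantile normalization narrows differences, and without that step its value was -0.28 (limma adjusted p = 0.419). As these are bulk samples, a lower or higher share of a cell type and less or more RNA per cell cannot be told apart, for Myh7 or for any gene below.

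Smyd2, which encodes a lysine methyltransferase expressed in heart and skeletal muscle, was the other gene called higher. It read 733, 687 and 842 in caPI3K, 942, 1115 and 1159 in dnPI3K, and 499, 490.5 and 490.4 in NTG. The 3 groups did not overlap, with caPI3K between NTG and dnPI3K. The pooled difference was 0.86 ± 0.11 (moderated SE, n = 6 against 3; limma adjusted p = 0.0212), a 1.82-fold rise. The caPI3K difference of 0.61 did not pass by itself (limma adjusted p = 0.210), whereas the dnPI3K difference of 1.11 did (limma adjusted p = 0.00192), and caPI3K minus dnPI3K was -0.51 (limma adjusted p = 0.0595). This call was lost when any one array other than dnPI3K replicate 1 was left out, with adjusted p up to 0.106 and a pooled difference between 0.82 and 0.91. A second Smyd2 probe set gave 0.54 (limma adjusted p = 0.518).

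The animal numbers in the titles fall into series, of which the caPI3K and NTG animals share 2 and the dnPI3K animals have their own. Within the 2 shared series the caPI3K minus NTG difference of Myh7 was 0.98 and 1.12, and that of Smyd2 0.52 and 0.78. For dnPI3K, transgene and number series cannot be told apart. The labels do not say what the numbers stand for.

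**Figure D2:**
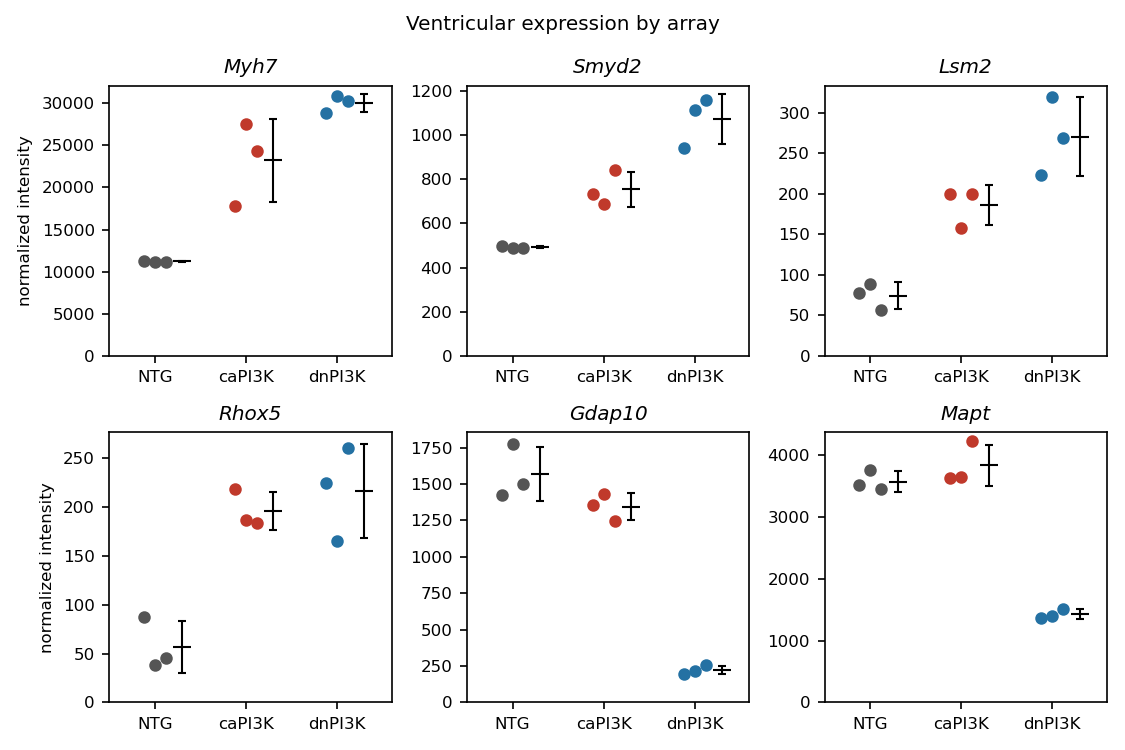
Normalized intensity (linear axis from 0) of 6 genes on each array; points are single mice, and the cross with bars gives the mean and SD of each group (n = 3). Myh7 and Smyd2 are the 2 higher calls, Lsm2 and Rhox5 did not pass, Gdap10 is a lower call whose caPI3K arrays (1246 to 1428) overlap NTG (1422 to 1775), and Mapt has opposite signs in the 2 transgenic groups.

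The 2 lower calls rested on dnPI3K. Gdap10, a transcript named for its induction during ganglioside-driven neuronal differentiation, read 1357, 1428 and 1246 in caPI3K, 198, 215 and 257 in dnPI3K, and 1422, 1775 and 1502 in NTG. The dnPI3K arrays were far below all others, and the caPI3K arrays overlapped the controls. The pooled difference was -1.52 ± 0.12 (moderated SE, n = 6 against 3; limma adjusted p = 0.000865). It averages -0.22 in caPI3K (limma adjusted p = 0.809) and -2.81 in dnPI3K (limma adjusted p = 6.43e-06), and these differ from each other by 2.6 (limma adjusted p = 1.49e-05).

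The second lower call was a probe set that the platform annotation assigns to several genes, so no gene is named. It read 652, 660 and 691 in caPI3K, 241, 282 and 244 in dnPI3K, and 749, 742 and 775 in NTG. All 6 transgenic arrays lay below NTG, but the caPI3K difference was -0.18 (limma adjusted p = 0.825) beside -1.57 in dnPI3K, and the pooled value was -0.87 ± 0.11 (limma adjusted p = 0.0212). Its call was lost when any of 7 of the 9 arrays was left out, the exceptions being dnPI3K replicates 1 and 2.

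Mapt, the gene of the microtubule-binding protein tau, passed the pooled test with no shared direction. It read 3627, 3641 and 4216 in caPI3K, 1357, 1402 and 1513 in dnPI3K and 3504, 3758 and 3442 in NTG. Its pooled value of -0.61 (limma adjusted p = 0.0212) combined 0.10 in caPI3K with -1.33 in dnPI3K. Another Mapt probe set gave -0.52 and the last gave 0.25, so the probe sets of this gene disagree in sign.

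Myh7 and Smyd2 were followed, outside the threshold, by genes whose 6 transgenic arrays all lay above the controls. With the 2 calls, the 12 such genes of smallest p ran from adjusted p = 0.00295 to 0.0836, and in none of the 12 did caPI3K and dnPI3K differ by the adjusted test. They were mostly dim: 8 of the 12 had an NTG mean under 100, where the floor of the scale was 35.3.

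Lsm2, a subunit of the ring that binds spliceosomal and decaying RNA, was nearest to the threshold (limma adjusted p = 0.0511). It read 200.1, 157 and 200.2 in caPI3K, 223, 320 and 269 in dnPI3K and 77.0, 89.1 and 56.3 in NTG, a pooled difference of 1.61 ± 0.24 (moderated SE, n = 6 against 3). Rhox5, a homeobox gene best known from the reproductive tract, read 218, 186 and 183 in caPI3K, 224, 165 and 260.1 in dnPI3K and 87.6, 38.3 and 45.3 in NTG. The transgenic arrays of Rhox5 overlapped each other, with caPI3K minus dnPI3K at -0.12 (interval -0.89 to 0.64), and the pooled value was 1.93 (limma adjusted p = 0.0511).

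Dusp8, a phosphatase of the stress-activated MAP kinases, read 115, 167 and 153 in caPI3K, 305, 321 and 326 in dnPI3K and 44.6, 68.7 and 87.2 in NTG. The dnPI3K arrays stood above caPI3K, and the pooled value was 1.73 (limma adjusted p = 0.0511). Its second probe set gave 0.71, with overlapping arrays.

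Smoc2, a secreted matricellular protein, was the brightest of these genes after Myh7. It read 970.1, 1009 and 1001 in caPI3K, 1256, 1165 and 1286 in dnPI3K and 787, 760 and 783 in NTG, a pooled difference of 0.51 ± 0.08 (moderated SE, n = 6 against 3; limma adjusted p = 0.0576). Frzb, a secreted antagonist of Wnt ligands, gave 1.77 (1.79 in caPI3K and 1.75 in dnPI3K, limma adjusted p = 0.0576) with 1 NTG array on the floor. Spink4, a Kazal-type protease inhibitor, gave 1.09 (limma adjusted p = 0.0576). Sytl4, a Rab27 effector, gave 1.5, Trabd 1.84, the somatostatin receptor gene Sstr2 1.51 and Sowahc 1.15, with adjusted p between 0.0587 and 0.0836. The floor held all 3 NTG arrays of Sowahc, 2 of Sytl4 and 1 of Trabd, so these differences depend on where the floor was set. Sowahc met the filter only through its transgenic arrays. Other probe sets of Sstr2 gave -0.06 and -0.40, and another of Sytl4 gave 0.16, so the probe sets of these genes disagree.

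No probe set of a single gene passed with all 6 transgenic arrays below the controls. At an unadjusted p under 0.05, 266 of 7484 genes (3.55%) were lower in both groups and 360 (4.81%) higher. The 12 non-overlapping genes of smallest p had adjusted p between 0.0576 and 0.242, and in 3 of them, Hrc, Sprr2g and Tyms-ps, the transgenic groups differed from each other.

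Pim1, a serine/threonine kinase that promotes survival of cardiac muscle cells, read 1614, 1293 and 1526 in caPI3K, 1523, 1418 and 1237 in dnPI3K and 2274, 1994 and 2108 in NTG. Both transgenic groups were lower by similar amounts (-0.53 and -0.61), and the pooled value was -0.57 ± 0.10 (moderated SE, n = 6 against 3; limma adjusted p = 0.0718). A second, dimmer Pim1 probe set was uneven, at -0.16 in caPI3K and -1.32 in dnPI3K. Its arrays overlapped and its pooled -0.74 did not pass (limma adjusted p = 0.562). Hrc, the histidine-rich calcium-binding protein of the sarcoplasmic reticulum, read 6613, 6840 and 6180 in caPI3K, 4711, 5011 and 4782 in dnPI3K and 7413, 7215 and 7582 in NTG. Its pooled value of -0.40 (limma adjusted p = 0.0576) covers -0.18 in caPI3K and -0.61 in dnPI3K.

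The Sprr genes encode small proline-rich proteins known from the cornified envelope of skin. Sprr2e read 1272, 1471 and 1199 in caPI3K, 1541, 1212 and 1262 in dnPI3K and 2082, 2715 and 1803 in NTG. Its pooled value was -0.72, with -0.73 and -0.70 in the 2 groups (limma adjusted p = 0.0855). Sprr2g read 272, 258 and 459 in caPI3K, 701, 790.0 and 524.5 in dnPI3K and 1062, 1120 and 958 in NTG, so here caPI3K was the lower group. Its pooled value was -1.19 (limma adjusted p = 0.0576). Both Sprr2 probe sets carry the sequence family suffix, and near-identical members of the family may share their probes.

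Ybx1, a cold-shock domain protein that binds messenger RNA, gave -0.48, the homeobox gene Hoxa4 -0.30, Dpf3, a subunit of the BAF chromatin remodelling complex, -1.19, and Ankrd33b -0.66. Their adjusted p lay between 0.0789 and 0.231. Slc22a21 (-1.0), a carnitine transporter gene, and Grik5 (-1.33), a kainate receptor subunit, had adjusted p of 0.241 and 0.242, and a second Grik5 probe set gave 0.09. The pseudogene Tyms-ps gave -1.22, with 0.10 on another probe set, and Tes, a focal adhesion protein gene, -0.93 with all 6 transgenic arrays on the floor. Tes met the filter only through its 3 NTG arrays, so its value is the NTG level less the chosen floor. It was tested in 17 of the 22 alternatives, with values from -2.26 to -0.83.

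**Figure D3:**
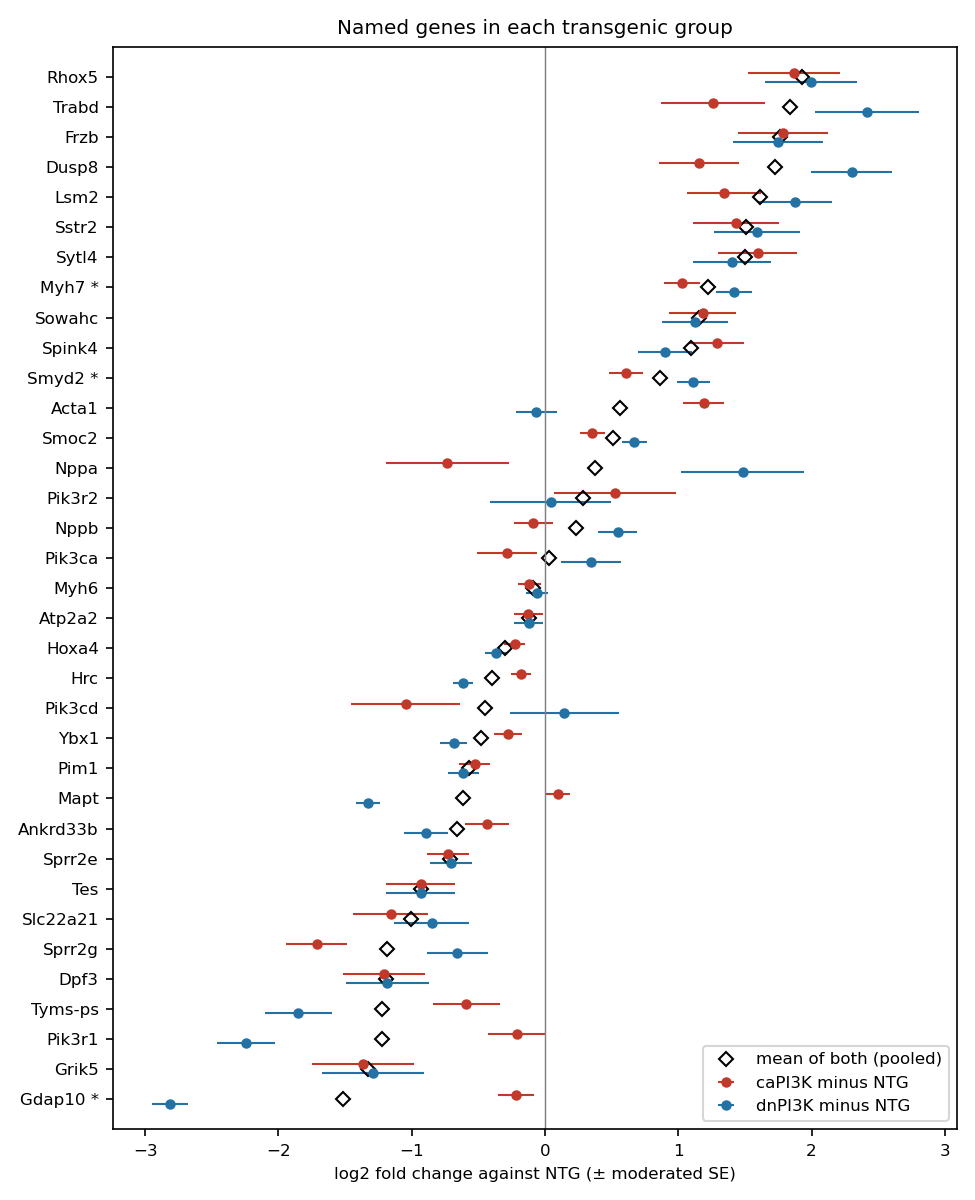
Log2 differences from NTG for the named genes, caPI3K in red and dnPI3K in blue with moderated SE bars, and the pooled mean as an open diamond; asterisks mark genes called in the pooled fit. Red and blue lie together for Rhox5, Frzb, Sprr2e and Pim1 and far apart for Gdap10, Pik3r1, Nppa and Acta1.

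Of the 23 measured markers of the fetal and hypertrophic programme, 1 was called, Myh7, and the median pooled difference was 0.07, beside 0.0049 over all genes. Fhl1 was the other member higher in both groups at an unadjusted p under 0.05, by 0.45 in caPI3K and 0.30 in dnPI3K. It did not pass (pooled limma adjusted p = 0.378), and a second Fhl1 probe set gave 0.47. By the same measure 2 members were lower, Myl4 and Myl7. Their caPI3K differences, -0.88 and -0.83, were smaller than their SE of 1.15 and 1.16. Within the 2 shared number series, caPI3K minus NTG was -3.46 and 4.27 for Myl4 and -3.32 and 4.14 for Myl7. A lower level in caPI3K was therefore not shown for either gene. Taken 1 group at a time against NTG, 7 of the 23 passed in dnPI3K and 2 in caPI3K. The shares over all probe sets were 2.18% and 0.0845%. The classic markers Acta1, Nppa and Nppb did not move with Myh7 in both groups. Acta1, the skeletal α-actin gene, read 21230, 20877 and 17243 in caPI3K, 10378, 6769 and 7972 in dnPI3K and 9968, 8036 and 8008 in NTG. Only the caPI3K arrays were high, at 1.19 above NTG (limma adjusted p = 0.0255), while dnPI3K differed by -0.07. Pooled Acta1 was 0.56 (limma adjusted p = 0.235).

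Nppa, the gene of atrial natriuretic peptide, leaned the opposite way. It read 1694, 1450.0 and 3527 in caPI3K, 11231, 8414 and 9192 in dnPI3K and 6840, 3744 and 1553 in NTG, with a wide spread among the controls. Its differences were -0.73 in caPI3K and 1.48 in dnPI3K, and the pooled 0.38 had an interval from -0.51 to 1.26 and was -0.19 without NTG replicate 3. Nppb, the gene of B-type natriuretic peptide, gave -0.09 and 0.55, and 0.23 when pooled (interval -0.05 to 0.51). Neither pooled value passed (limma adjusted p = 0.819 for Nppa and 0.62 for Nppb), although caPI3K and dnPI3K differed from each other in both genes (limma adjusted p = 0.0282 and 0.0428). The calcium pump gene Atp2a2, usually lowered in failing ventricle, differed by -0.12 (interval -0.33 to 0.08), or -0.22 without quantile normalization.

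Among the PI3K genes, 4 of the 8 class I subunits were measured and none was called. Pik3r1, the p85α regulatory subunit, read 661, 482 and 683 in caPI3K, 123, 162 and 161 in dnPI3K and 542, 817 and 759.7 in NTG. Its pooled value of -1.22 lay just outside the threshold (limma adjusted p = 0.0511) and came from dnPI3K (-2.24 against -0.21 in caPI3K). The catalytic subunit genes Pik3ca (0.03, interval -0.40 to 0.46) and Pik3cd (-0.45, interval -1.23 to 0.33) and the regulatory Pik3r2 (0.28, interval -0.59 to 1.15) did not pass. The labels do not name the transgene's sequence, so these probe sets are no check on it.

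Below and above the enzyme, 18 genes of the PI3K-Akt-mTOR list were measured and none was called, with a median of 0.08. The median was -0.05 in caPI3K and 0.22 in dnPI3K, and 2 of the genes passed in dnPI3K against NTG. The receptor gene Igf1r read 1167, 967 and 798 in caPI3K, 928, 970.0 and 1079 in dnPI3K and 1374, 1259 and 1365 in NTG. All 6 transgenic arrays were below the controls, by -0.46 in caPI3K and -0.43 in dnPI3K, yet the pooled -0.45 ± 0.12 (moderated SE, n = 6 against 3) had a limma adjusted p of 0.268. The kinase gene Mtor lay above the controls on all 6 arrays, by 0.33 and 0.36 (pooled limma adjusted p = 0.395), but a second Mtor probe set gave -0.05 with overlapping arrays. Akt2, 1 of the Akt kinases, gave 0.29, nearly all of it in dnPI3K (0.57 against 0.01). The list of FoxO target and atrophy genes, which holds transcripts that Akt signalling normally represses, had a median of 0.07 over 21 measured genes and no call. The median was -0.03 in caPI3K and 0.11 in dnPI3K, so the pooled median does not describe either group.

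1 of the 37 gene lists held a call, the fetal list with Myh7, and the list medians ran from -0.32 to 0.25. 21 medians were above 0 and 16 below. The lists are described by how many members had an unadjusted p under 0.05 with the same sign in both groups, beside the background of 4.81% higher and 3.55% lower over 7484 genes.

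The heat shock and chaperone list had 8 of 30 genes higher at an unadjusted p under 0.05, none lower, and a median of 0.15. They were the inducible Hsp70 genes Hspa1a (0.62) and Hspa1b (0.75), whose sequences are nearly identical, their co-factors Hspa4l (0.45), Hsph1 (0.58), Dnajb1 (0.40) and Dnajb4 (0.56), and the chaperonin subunits Cct3 (0.27) and Cct5 (0.18). Dnajb4 read 791, 961 and 1008 in caPI3K, 760.2, 778 and 1012 in dnPI3K and 467, 737 and 611.5 in NTG, so all 6 transgenic arrays lay above the controls while caPI3K and dnPI3K overlapped each other. Hsph1 was higher in caPI3K (0.91) than in dnPI3K (0.25), a difference that passed (limma adjusted p = 0.0157), and its pooled value did not (limma adjusted p = 0.0718). The list's median was 0.25 in caPI3K and 0.04 in dnPI3K.

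Genes of mitochondrial energy supply leaned the other way. Of 61 oxidative phosphorylation genes, 8 were lower at an unadjusted p under 0.05 and none higher, 12 had a pooled value above 0 (50.7% of all genes did), and the median was -0.08, with -0.09 in each transgenic group. The 8 were Ndufa3, Ndufa7, Ndufa9, Ndufb6 and Ndufb9 of complex I and Cox4i1, Cox5b and Cox6c of cytochrome oxidase. Cox6c read 14894, 17135 and 16400 in caPI3K, 17831, 14968 and 14192 in dnPI3K and 18352, 18536 and 19275 in NTG, a pooled -0.24 ± 0.09 (moderated SE, n = 6 against 3; limma adjusted p = 0.409).

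The fatty acid oxidation list had 4 of 25 genes lower (Ppara, Fabp3, Eci2 and Etfa) and a median of -0.12. Its median was -0.04 in caPI3K and -0.25 in dnPI3K, and 3 members passed against NTG in dnPI3K and 0 in caPI3K. Ppara, the nuclear receptor that drives this pathway, accounted for the largest value (-0.93, limma adjusted p = 0.0511), with -1.82 in dnPI3K and -0.04 in caPI3K. In the citric acid cycle 2 of 24 were lower (Sdha and Mdh1), and in glycolysis and glucose uptake 2 of 21 were higher (Slc2a1 and Tpi1).

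**Figure D4:**
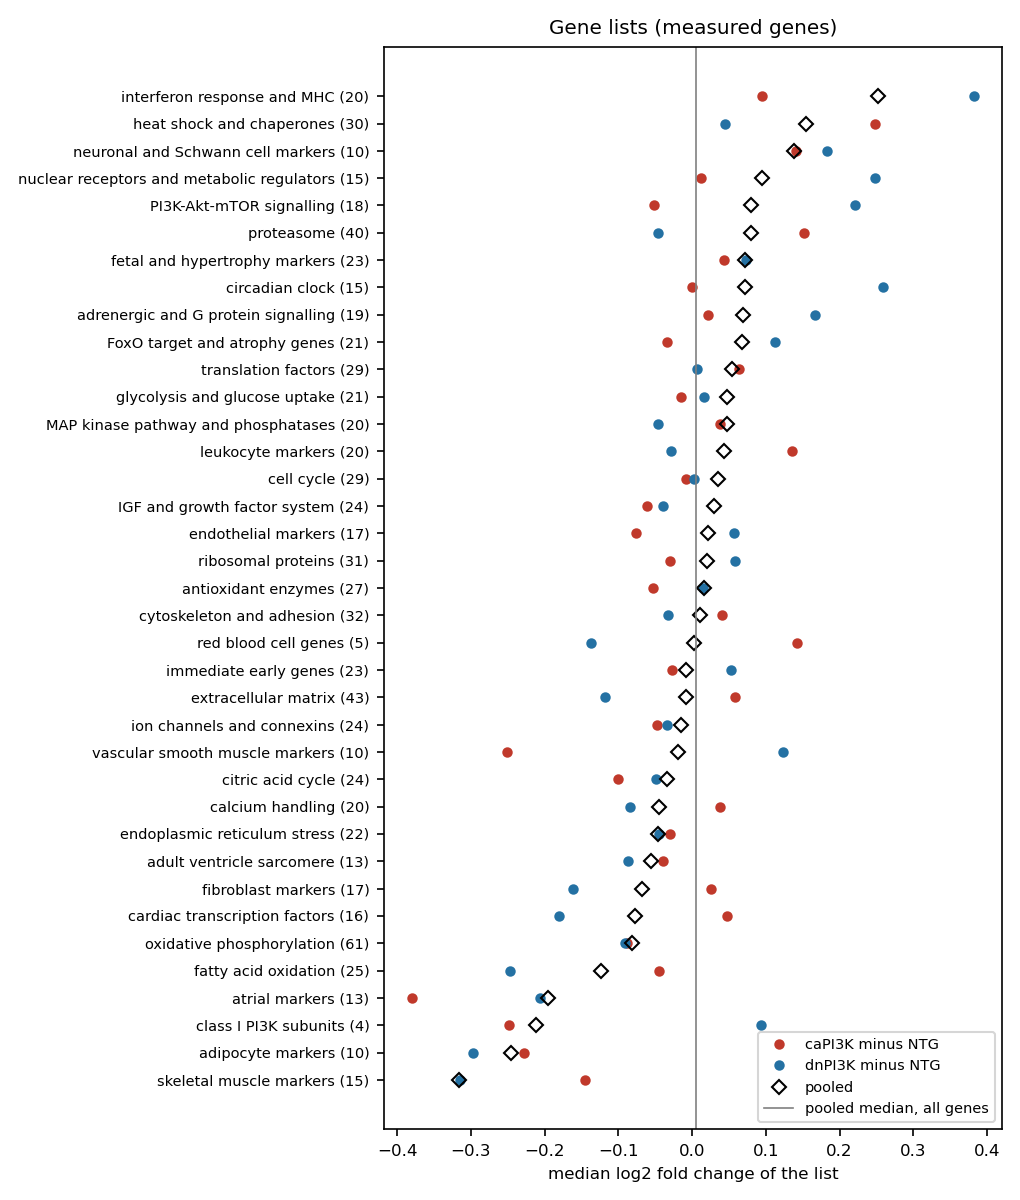
Median log2 difference from NTG of each of the 37 gene lists, with the number of measured genes in brackets; red is caPI3K, blue dnPI3K, the open diamond the pooled value and the vertical line the pooled median of all genes (0.0049). The pooled medians run from -0.32 for skeletal muscle markers to 0.25 for the interferon and MHC list, and 1 of the 37 lists holds a call.

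For growth and protein turnover, the cell cycle list had 5 of 29 genes higher at an unadjusted p under 0.05 (Ccna2, Ccnd1, Rrm1, Aurka and Cdkn1a) and none lower, with a median of 0.03. A second Cdkn1a probe set gave -0.20, with 0.07 in caPI3K and -0.46 in dnPI3K, and a second Rrm1 probe set gave 0.23. The translation factors had 4 of 29 higher (Eif3d, Eef1a1, Eef2k and Gspt1) and 1 lower (Eef1d). The proteasome list had 3 of 40 higher (Psmd4, Psmd6 and Psmd7), 26 above 0, and medians of 0.15 in caPI3K and -0.05 in dnPI3K. The interferon and MHC list had 17 of 20 genes above 0 and the highest median of any list (0.25), but no member reached an unadjusted p under 0.05 in either direction.

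Among the cardiac transcription factors, Tead1, which encodes a TEAD factor that binds M-CAT elements, read 175, 141 and 165 in caPI3K, 172, 116 and 124 in dnPI3K and 93.1, 40.8 and 28.7 in NTG. All 6 transgenic arrays lay above NTG, with caPI3K and dnPI3K overlapping each other, and a pooled 1.52 ± 0.33 (moderated SE, n = 6 against 3) did not pass (limma adjusted p = 0.161). A second Tead1 probe set gave 0.38. The list as a whole had a median of -0.08 over 16 genes, with 1 member higher and 1 lower at an unadjusted p under 0.05.

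Summed markers of most other cell types overlapped between the transgenic side and the controls. The summed intensity of 17 endothelial markers ran from 29328 to 33773 in caPI3K, from 31658 to 33259 in dnPI3K and from 30086 to 36799 in NTG. For 17 fibroblast markers the ranges were 40884 to 43542, 40067 to 45041 and 38918 to 42940. Sums of 20 leukocyte markers (12200 to 16223, 10040 to 20687, and 10746 to 20031) and of 13 atrial markers (9278 to 21208, 13062 to 15253, and 6791 to 28462) also overlapped. The atrial sum combines unlike members: Nppa made up most of it in dnPI3K, whereas the light chain genes Myl4 (27.9 to 49.7 in dnPI3K against 223 to 6896 in NTG) and Myl7 (36.5 to 142 against 315 to 7253) were lower there, and 3 atrial markers passed in dnPI3K against NTG.

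The summed skeletal muscle markers stood on opposite sides of the controls, at 18712 to 25081 in caPI3K, 6363 to 7792 in dnPI3K and 12491 to 15285 in NTG. 2 of the 15 measured genes of this list passed in dnPI3K against NTG, and the part of the list in the other results was not tested. Vascular smooth muscle markers (10 genes) summed to 9334 to 10276 in dnPI3K, above the 7141 to 7530 of caPI3K and the 7967 to 8308 of NTG. Neither sum set both transgenic groups on 1 side of the controls. Such sums follow their brightest members. The median skeletal muscle marker was lower in both groups (-0.15 in caPI3K and -0.31 in dnPI3K), with 4 of 15 genes above 0 when pooled.

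The arrays were scaled alike, with a trimmed mean of 500.4 on each, and correlated at 0.939 to 0.959 between groups and 0.947 to 0.966 within them. The dnPI3K arrays differed from the rest in 2 technical readings. The geometric mean of the spiked-in control transcripts was 324 ± 61.4 (SD, n = 3) in dnPI3K, 495 ± 70.1 in caPI3K and 521 ± 82.1 in NTG, and the 18S ribosomal control gave 6059 ± 2477 in dnPI3K, 518 ± 37.1 in caPI3K and 542 ± 112 in NTG. The share of these readings in the dnPI3K side of the pooled values was not tested. On the caPI3K arrays both readings overlapped those of NTG.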

How the data were processed

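The authors deposited a table of intensity values, 12488 probe sets by 9 arrays of a 1-colour oligonucleotide platform, scanned at a photomultiplier setting of 10% per the labels. The steps and software behind them are not given in the sources used here. They are linear and above 0, and their mean without the lowest and highest 2% is 500.4 on every array. The platform annotation names 1 gene for 10855 probe sets, several for 396 and does not list 1237. Array number, 3 per group, limits the precision.

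The values were quantile normalized between arrays, given a lower limit (the floor, 35.3) at the 20th percentile and log2 transformed. Probe sets above the floor on at least 3 of 9 arrays were tested, without 66 control probe sets, which left 10645 (9420 with 1 symbol, 7484 genes). The model was fitted with limma 3.58.1 in R 4.3.3 (a mean for each of caPI3K, dnPI3K and NTG, eBayes with an intensity trend, 6 residual and 4.72 prior degrees of freedom). Tests were two-sided. The procedure was tested on simulated data. Array values, means and SD in the text are before the floor and the logarithm, and differences are after both.

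A gene is represented by its brightest probe set. Named genes were up to 12 per direction with the largest change among calls without overlap between arrays, filled to 12 by smallest p. Fixed markers and class I PI3K subunits, up to 3 genes per list by smallest p, and calls of opposite sign were added. Gdap10 and the probe set of several genes are named because they are among the 4 calls. Members, lists and tests were chosen with earlier results of these data known. Promoters are from RefSeq. Alternatives changed normalization, floor, filter, moderation, array weights, probe sets per gene, the groups fitted, the number series as a random block, the definition of a shared call and the arrays included.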

Additional observations from a re-analysis of the deposited data

Results flagged for a closer look

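Beside the pooled values, several named genes differed between caPI3K and dnPI3K in the same limma fit at an adjusted p under 0.05, so that their pooled value averages unlike groups. The caPI3K minus dnPI3K log2 difference was 2.6 for Gdap10, 2.03 for Pik3r1, 1.78 for Ppara, 1.43 for Mapt, 1.26 for Tyms-ps, 1.26 for Acta1, 1.25 for P4hb and 1.04 for Ddr2. It was 0.91 for Nfatc3, 0.88 for Col4a1, 0.65 for Hsph1, 0.56 for Cdh2, 0.44 for Hrc and 0.42 for Fabp3. Values were below 0 for Nppa (-2.22), Sprr2g (-1.06), Nppb (-0.63) and Akt2 (-0.56).

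In 6 named genes 1 of the 6 transgenic arrays stood apart from the other 5 on the log2 scale. The gap to the nearest array was 0.796 of the whole range for Stard10, 0.729 for Epb42, 0.717 for Gnai2, 0.679 for Myh6, 0.677 for Slc22a21 and 0.649 for Rrm1, above the 95% critical value of Dixon's test for 6 samples. Chance gives such a gap in about 1 in 20 groups of a single kind, whereas these 6 arrays mix 2 kinds of transgenic mouse. Every named gene was screened, among them up to 3 from each of 37 lists. Some gaps of this size would arise by chance among so many genes, so the count of 6 is no result about these genes. For Epb42, 3 caPI3K arrays and 1 dnPI3K array lay on the floor, which ties their values.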

How the results depend on the processing

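Counts of higher and lower calls (2 and 2) were 2 and 1 with arrays scaled to the same median, 7 and 5 with a floor at the 40th percentile, 5 and 4 without the filter on dim probe sets, 3 and 6 with only probe sets above the median, 6 and 3 without the intensity trend, 6 and 5 with robust moderation, 9 and 5 with 1 probe set per gene, and 5 and 4 with the animal number series as a random block. They were 2 and 2 on the deposited values and with a floor at the 5th percentile, and 3 and 2 with array weights. In the 2-group fit, which leaves the difference between caPI3K and dnPI3K in the residual spread, limma called 0 and 0 (675 probe sets at an unadjusted p under 0.05, smallest adjusted p 0.0761). A call on the larger of both p-values also gave 0 and 0 (251 unadjusted, smallest adjusted p 0.124).

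Leaving out 1 array gave 1 to 6 higher and 1 to 4 lower calls. The counts were 1 and 1 without caPI3K replicate 1 or 2, dnPI3K replicate 3 or NTG replicate 2, 1 and 2 without caPI3K replicate 3, 2 and 4 without dnPI3K replicate 1, 1 and 3 without dnPI3K replicate 2, 3 and 1 without NTG replicate 1, and 6 and 3 without NTG replicate 3. Myh7 kept its call in 20 of 22 alternatives and Gdap10 in 20, both losing it in the 2-group fit and under the larger p. Smyd2 kept it in 11, with adjusted p from 0.0157 to 0.624. Among named genes, 2825 values kept direction and side of the threshold, 47 newly passed, 15 no longer passed and 6, none of a called gene, changed sign. With single arrays left out Pik3ca ran from -0.090 to 0.13 (below 0 without caPI3K replicate 3, dnPI3K replicate 2 or NTG replicate 2), Pik3r2 from -0.094 to 0.53 (below 0 without NTG replicate 2), Nppa from -0.19 to 0.88 (below 0 without NTG replicate 3) and Rgs5 from -0.78 to 0.12 (above 0 without NTG replicate 3). The causes were not tested. No paired analysis was possible because replicate numbers only follow the order of deposition and match no mice between groups; the animal number series entered as the random block above, and not as a fixed one, since the dnPI3K mice have their own.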

Other observations

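Further genes had all 6 transgenic arrays on 1 side of the controls without passing. Tgfb1, the gene of the profibrotic cytokine transforming growth factor β1, gave a pooled log2 difference of 1.64 (1.17 in caPI3K and 2.12 in dnPI3K, limma adjusted p = 0.196). It was dim, at 184, 72.1 and 66.6 in caPI3K, 136, 186 and 253 in dnPI3K and 28.7, 37.0 and 59.9 in NTG. Ddit3, a transcription factor of the endoplasmic reticulum stress response, gave 0.71 (limma adjusted p = 0.321), and Pmp22, a myelin protein gene, 0.35 (limma adjusted p = 0.323). Angpt1, a ligand of the endothelial receptor Tie2, was lower in both groups (-0.85 and -0.43, pooled limma adjusted p = 0.388). Rpl32, by a dim probe set, gave -1.76 (limma adjusted p = 0.313), beside a median of 0.02 over the 31 measured ribosomal protein genes.

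In the clock list, Cry1, a repressor of the core clock, gave 0.66 (limma adjusted p = 0.241) and Nr1d1, which represses Arntl, -0.56 (limma adjusted p = 0.319), in each case with the larger value in dnPI3K. The labels give no time of day for tissue collection. Myl4, an atrial light chain gene, read 499, 421 and 4304 in caPI3K, 27.9, 49.7 and 36.1 in dnPI3K and 6896, 3669 and 223 in NTG. Its pooled -3.18 was the largest of any list gene, did not pass (limma adjusted p = 0.339), and moved to between -4.68 and -2.20 as single arrays were left out. A second Myl4 probe set gave a smaller -0.99 (limma adjusted p = 0.245), with -0.25 in caPI3K and -1.73 in dnPI3K.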
